A study of Caenorhabditis elegans with 2 samples.

Results

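The genes described here are the snoRNA genes of Caenorhabditis elegans that do not lie wholly inside a protein-coding gene on the same strand. They were chosen by biotype and position in the Ensembl annotation of the WBcel235 genome (ce11), and they number 163 of 346 snoRNA genes and of 46926 annotated genes in all. Of these 163 genes, 124 overlapped no protein-coding gene, 33 lay within a protein-coding gene on the opposite strand, 5 overlapped one partly on the opposite strand, and 1 overlapped one partly on its own strand. The other 183 snoRNA genes lie inside a same-strand protein-coding gene and are called hosted snoRNA genes below. For each gene, a peak was counted when its summit, the highest point of the peak, fell from 500 bp upstream to 100 bp downstream of the annotated start.

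DNA bound by AKIR-1::GFP was immunoprecipitated and sequenced in 2 biological replicates, numbered 3 and 4, of whole worms of strain IG1654. The strain carries frSi12, an insertion on chromosome II in which the akir-1 promoter drives AKIR-1 with a C-terminal GFP-FLAG tag, and the precipitating antibody was directed against GFP. The antibody label of both samples reads akir-1. The labels also name CRISPR directed at akir-1 as the means of insertion, and whether the worm's own akir-1 gene was intact is not stated in them. The animals were mixed-sex young adults of 70 hours, grown from larvae synchronized by bleaching and L1 starvation, and both replicates carried the same transgene. There was 1 group and no comparison group, and no library from untagged worms was analysed here, so the signal that these genes give without the tagged protein was not measured. In whole worms, more cells with the protein at a gene and more protein per cell cannot be told apart.

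Small nucleolar RNAs guide the chemical modification of ribosomal and spliceosomal RNAs. Those of the box C/D type direct ribose methylation with fibrillarin, and those of the box H/ACA type direct pseudouridylation with dyskerin. A snoRNA inside a host gene is usually released from the host's intron, whereas one outside a host is generally thought to have a promoter of its own. RNA polymerase III reads tRNA genes through 2 internal elements, the A box and the B box, and in budding yeast the snoRNA gene SNR52 is read by this polymerase from A and B boxes that lie before the mature RNA. Akirins are nuclear proteins without a known DNA-binding domain. In Drosophila, akirin works with the Brahma chromatin remodelling complex at immune genes, and in worms akir-1 is needed for the expression of antimicrobial peptide genes in the epidermis.

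Of the 163 genes, 27 had a summit in the authors' IDR-thresholded list, the 400 peaks that passed a threshold on the irreproducible discovery rate (IDR), against 0.885% of all nuclear genes. The IDR measures how well the ranks of peaks repeat between replicates. Of the 27 genes, 14 carried the letters of an A box or a B box near the annotated start. The search used GCNNANTGG for the A box core and GTTCNANNC for the B box core on the strand of the gene, where N is any base, over 120 bases from 100 before the start to 20 from the start. The following 120-base windows were read from the RefSeq ce11 sequence, 5′ to 3′ on the strand of each gene, with the cores in capitals. The first 5 are shown because they hold both cores and an IDR-thresholded summit, as does 1 further gene, T19B4.8, which is described by its values alone: T03F7.8 at chrV:11314158-11314277 on the plus strand, C04G6.12 at chrII:5105212-5105331 on the minus strand, C41C4.11 at chrII:8107251-8107370 on the minus strand, F12F6.11 at chrIV:11549845-11549964 on the minus strand and T10B9.11 at chrII:9774815-9774934 on the minus strand. W03C9.9, at chrII:11960798-11960917 on the plus strand, holds a B box core alone and has such a summit.
T03F7.8: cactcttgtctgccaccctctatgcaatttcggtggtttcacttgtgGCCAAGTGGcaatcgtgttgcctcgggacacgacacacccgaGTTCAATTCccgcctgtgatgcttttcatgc
C04G6.12: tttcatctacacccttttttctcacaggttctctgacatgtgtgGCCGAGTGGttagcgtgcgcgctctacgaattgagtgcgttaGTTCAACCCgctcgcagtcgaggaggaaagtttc
C41C4.11: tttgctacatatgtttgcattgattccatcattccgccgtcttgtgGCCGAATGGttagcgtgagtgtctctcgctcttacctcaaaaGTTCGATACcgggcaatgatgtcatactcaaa
F12F6.11: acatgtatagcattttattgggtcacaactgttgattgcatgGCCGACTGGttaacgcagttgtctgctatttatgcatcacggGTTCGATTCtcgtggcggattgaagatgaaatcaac
T10B9.11: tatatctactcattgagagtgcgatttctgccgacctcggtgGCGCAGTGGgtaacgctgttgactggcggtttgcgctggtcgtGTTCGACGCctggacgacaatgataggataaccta
W03C9.9: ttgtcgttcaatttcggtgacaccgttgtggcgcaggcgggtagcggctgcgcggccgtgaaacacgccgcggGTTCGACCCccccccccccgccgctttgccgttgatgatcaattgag

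H04D03.5, at chrIII:10432243-10432362 on the plus strand, and Y59E1B.14, at chrX:1891409-1891528 on the plus strand, are shown because they hold both cores, again in capitals, and had no peak in any list. M7.15, at chrIV:11083047-11083166 on the plus strand, and W06H8.17, at chrV:6227531-6227650 on the minus strand, are shown because they had an IDR-thresholded summit and neither core. Y53F4B.47, at chrII:15025874-15025993 on the minus strand, had such a summit and holds in its place the word GAACCCG, in capitals, which 20.2% of the 129 snRNA genes also hold in this window.
H04D03.5: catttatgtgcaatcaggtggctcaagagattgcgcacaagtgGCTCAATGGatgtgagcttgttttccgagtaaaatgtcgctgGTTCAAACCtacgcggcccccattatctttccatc
Y59E1B.14: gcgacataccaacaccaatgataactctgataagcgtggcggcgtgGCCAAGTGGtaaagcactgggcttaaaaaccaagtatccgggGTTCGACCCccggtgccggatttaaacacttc
M7.15: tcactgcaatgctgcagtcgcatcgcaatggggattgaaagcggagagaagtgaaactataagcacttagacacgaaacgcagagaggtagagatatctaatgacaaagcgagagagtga
W06H8.17: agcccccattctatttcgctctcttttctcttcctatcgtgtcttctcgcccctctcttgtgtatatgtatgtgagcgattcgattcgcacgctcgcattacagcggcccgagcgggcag
Y53F4B.47: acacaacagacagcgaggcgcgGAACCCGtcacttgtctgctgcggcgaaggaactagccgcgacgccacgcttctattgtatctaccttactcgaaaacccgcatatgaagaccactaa

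An IDR-thresholded summit lay at 27 of the 163 genes (16.6%, exact 95% interval 11.2 to 23.2%), against 15 of the 183 hosted snoRNA genes (8.20%, 4.66 to 13.2%). Over all 46890 genes of the nuclear chromosomes the share was 0.885%. It was 9.64% of 612 nuclear tRNA genes, 5.43% of 129 snRNA genes and 0.921% of 19973 nuclear protein-coding genes. The intervals of the 2 snoRNA gene sets overlapped, the difference between them was not tested, and all intervals cover counting error over genes only.

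The longer lists, of 30000 peaks each, placed summits at more of the genes. The list called on the pooled replicates had a summit at 77 of the 163 genes (47.2%), at 75 hosted snoRNA genes (41.0%) and at 21.9% of all nuclear genes. In the replicate 3 list the counts were 65 of the 163 genes (39.9%) and 73 hosted genes (39.9%), beside 21.2% of all nuclear genes. In the replicate 4 list they were 70 (42.9%) and 81 (44.3%), beside 22.1%. In each of these 3 lists the intervals of the 2 snoRNA gene sets overlapped, and both sets stood above all nuclear genes. A summit in both replicate lists was present at 50 of the 163 genes (30.7%, 23.7 to 38.4%), at 58 hosted genes (31.7%, 25 to 39%) and at 9.85% of all nuclear genes. A further 15 genes had one in replicate 3 alone, 20 in replicate 4 alone and 78 in neither, and 72 had no summit in any of the 4 lists.

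**Figure D1:**
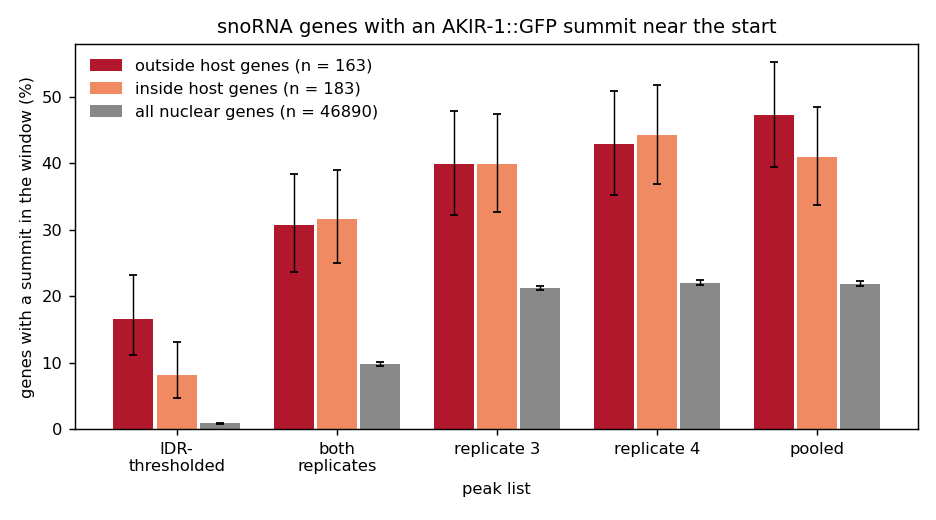
Percentage of genes with a summit from 500 bp upstream to 100 bp downstream of the start, for snoRNA genes outside host genes, hosted snoRNA genes and all nuclear genes, in each peak list and in both replicate lists. Bars are shares and error bars are exact 95% binomial intervals; the 2 snoRNA sets stand at 16.6% and 8.20% in the IDR-thresholded list and at 39.9% each in replicate 3, with all nuclear genes below them in every list.

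The 27 summits belonged to 27 different peaks, and their median strength was close to that of the IDR-thresholded list. Their signal values, the authors' measure of peak height on a scale that is not stated, ran from 109 to 390 with a median of 131, and the median over all nuclear peaks of that list was 133. Each of the 27 had the same signal value in the pooled list, where the median over the 77 genes was 75.4 and the median over all nuclear peaks was 44.5. In the replicate lists the medians at these genes were 49.3 in replicate 3 and 35.3 in replicate 4, against list medians of 26.0 and 24.8. The q-values of the 27 peaks ran from 0.0264 to 0.0526, and 19 of them had the lowest value.

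All 27 genes had a replicate 3 peak and 25 had a replicate 4 peak, and 17 ranked within the 400 strongest peaks of both replicates and 1 within those of neither. Each of the 27 peaks held the same rank in the IDR-thresholded list as in the pooled list, whether or not its replicate ranks were alike. The list was made from these same replicates, so the counts over the 27 describe that choice and are no support for agreement between the replicates. Over the 50 genes with a peak in both replicates, log2 signal values had a Pearson r of 0.64 and a Spearman rho of 0.64, as a description over genes that share the same 2 libraries. Over the 25 of them with an IDR-thresholded summit, r was 0.54 and rho 0.47. Without the strongest gene, F59C6.15, r was 0.22 and rho 0.40 over 24 genes, so the Pearson value of this smaller set rested largely on 1 gene. Replicate summits lay a median of 31 bp apart, and within 100 bp of each other at 41 of the 50 genes.

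**Figure D2:**
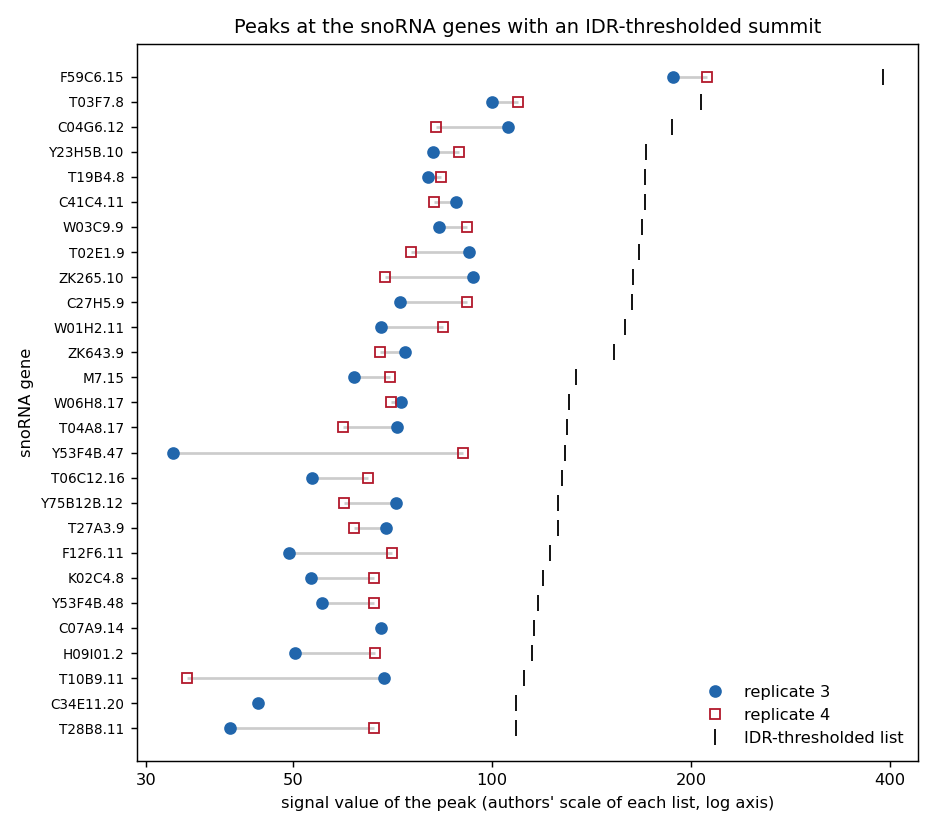
Signal value of the peak at each of the 27 snoRNA genes with an IDR-thresholded summit, ordered by the IDR-thresholded value, in replicate 3 (filled circles), replicate 4 (open squares) and the IDR-thresholded list (ticks), on a log axis. Each list has its own scale, and C07A9.14 and C34E11.20 have no replicate 4 summit in the window. F59C6.15 is the highest in all 3 lists, and Y53F4B.47 and T10B9.11 have the widest gaps between replicates.

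Summits sat close to the start of the snoRNA. The median position of the 27 IDR-thresholded summits was 42 bp upstream (position -42, quartiles -67.5 and -8.5), and 25 of the 27 lay within 100 bp of the start. The summits of hosted snoRNA genes in this list had a median of -36, those of all nuclear genes -82 and those of protein-coding genes -230.5. Summits at nuclear tRNA genes (median -2) and snRNA genes (median 22) lay nearer the start still. In the pooled list the median was -47, in replicate 3 it was -53 and in replicate 4 it was -62, and 57 of 77, 46 of 65 and 53 of 70 summits in these lists lay within 100 bp. The exceptions in the IDR-thresholded list were W01H2.11 at -491 and T28B8.11 at -128. The replicate 3 and replicate 4 summits of W01H2.11 lay at -492 and -454, so both replicates put this peak far from the annotated start.

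**Figure D3:**
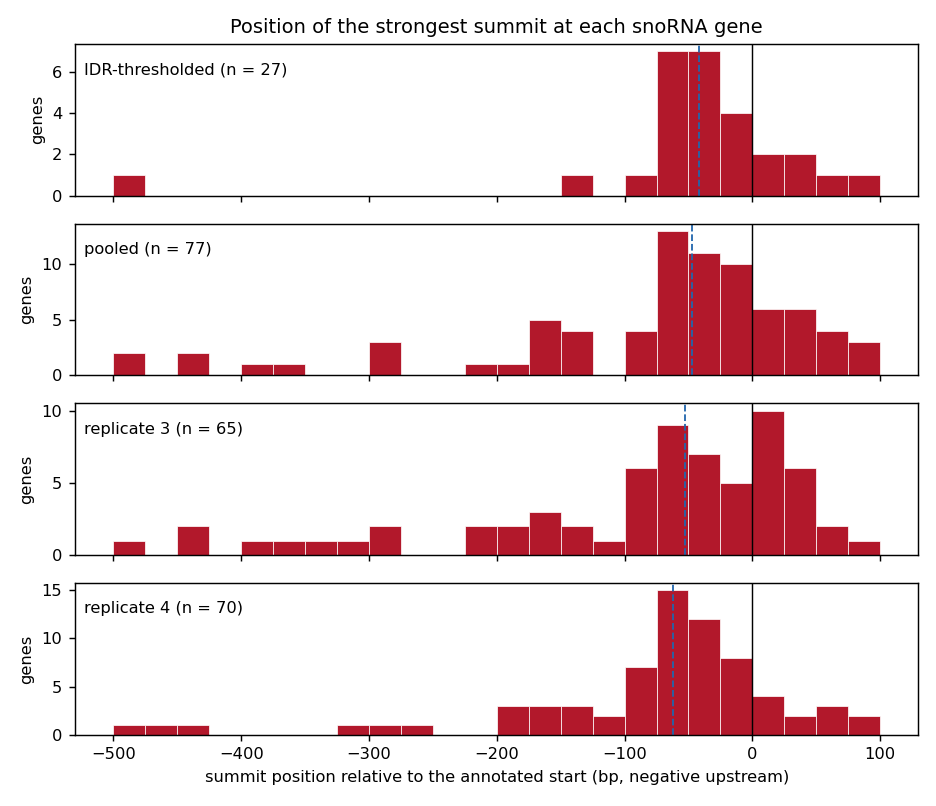
Position of the strongest summit at each snoRNA gene outside host genes, in bp from the annotated start (negative upstream), as counts of genes in bins of the same width for each of the 4 lists. The solid line marks the start and the dashed line the median, which was -42 for IDR-thresholded, -47 for pooled, -53 for replicate 3 and -62 for replicate 4 summits.

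The share of genes with an IDR-thresholded summit was counted with and without the box cores. Of the 26 genes with an A box core or a B box core in the window, 14 had such a summit (53.8%, 33.4 to 73.4%), against 13 of the 137 genes with neither (9.49%, 5.15 to 15.7%). The A box core was present at 13 genes, 9 of them with a summit (69.2%, 38.6 to 90.9%), and the B box core at 22 genes, 11 of them with one (50%, 28.2 to 71.8%). Among all nuclear genes a summit lay at 3.55% of the 1605 with either core and at 0.791% of those with neither, at 5.37% of those with the A box core and at 2.64% of those with the B box core. The search was chosen with earlier results of these lists known, so these intervals describe the counts and no test was made. Among hosted snoRNA genes, 22 held either core and 4 of those had a summit (18.2%), against 11 of the 161 with neither (6.83%). An A box core was held by 11 hosted genes and 0 of them had one.

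In pairs of exact cores, the 2 cores lay at nearly the same distance from each other. An A box core lay in the window of 1.63% of all nuclear genes and a B box core in 1.86%, and among tRNA genes, whose A box is internal and near the start, the A box core lay in 31.9%. Both cores with starts 35 to 50 bases apart were found at 19 nuclear genes, of which 9 were among the 163, 5 were hosted snoRNA genes and 0 were protein-coding genes. In the 9 genes the A box core started at -58 to -52 and the B box core at -16 to -10, with a spacing of 42 or 43 bases. With up to 1 mismatch per core, the pair was found at 23 of the 163 genes, of which 13 had an IDR-thresholded summit (56.5%, 34.5 to 76.8%), and at 19 hosted genes, of which 6 had one (31.6%). Among all nuclear genes 0.909% held such a pair in this window and 5.40% of those had a summit. Of the 166 protein-coding genes with the pair 0 had one.

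**Figure D4:**
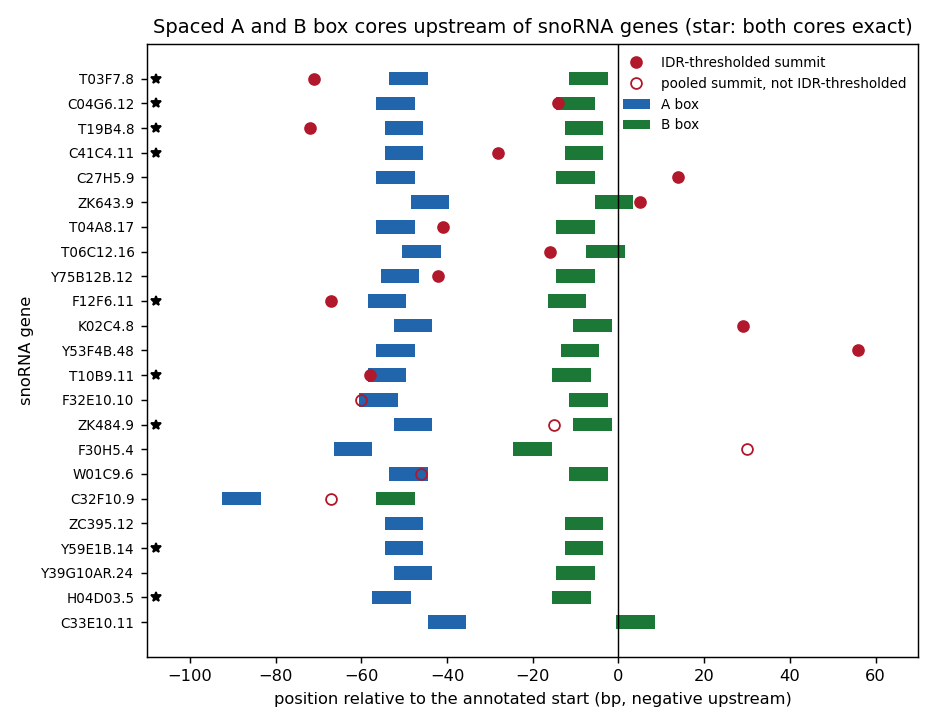
Positions of the A box core (blue) and B box core (green) of each pair at the 23 snoRNA genes outside host genes that hold one with up to 1 mismatch per core, in bp from the annotated start. Filled circles are IDR-thresholded summits, open circles are pooled summits at genes without one, and stars mark the 9 genes with both cores exact. Most A boxes lie near -54 and most B boxes near -12. Of the 13 filled circles, 6 lie upstream of the middle of the pair and 7 downstream of it, some of them between the cores.

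In these 23 genes the A box core had a median start of -54 and the B box core of -12, and 14 of the 23 had the spacing of 42 bases. Where a gene held several pairs, an exact pair was kept first, and otherwise the pair with the spacing nearest 42 bases. The medians and the count of 14 are thus partly set by this choice and are no support for a preferred spacing. The 13 IDR-thresholded summits lay a median distance of 28 bp from the middle of the pair, 6 upstream of it and 7 downstream, over a range of -43 to 86 bp, and 8 of them lay within 40 bp of it. On the opposite strand an A box core lay at 3 of the 163 genes (1.84%), against 1.21% of all nuclear genes. A B box core lay there at 2 (1.23%), against 1.61%. An IDR-thresholded summit was present at 0 of the 3 and 0 of the 2, which are too few to be read against the gene's own strand.

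**Figure D5:**
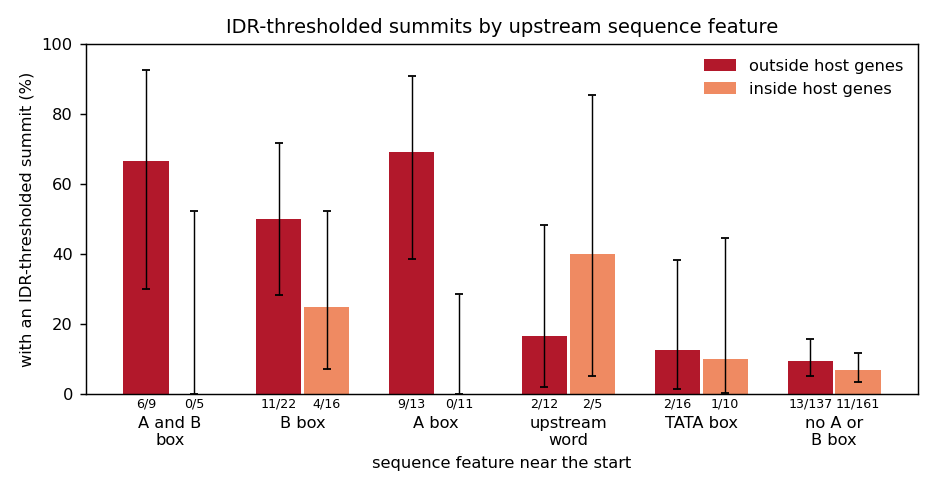
Percentage of snoRNA genes with an IDR-thresholded summit among those that hold each sequence feature in the 120-base window, outside host genes and inside them, with counts under the bars and exact 95% binomial intervals as error bars. The upstream word is GAACCCG; genes outside hosts with an A box core stand at 69.2% and those with neither box core at 9.49%.

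Among the 163 genes as a whole 16.6% had an IDR-thresholded summit, and 2 further motifs were read against that share. The TATA box, TATAAA, was present at 16 of the 163 genes (9.82%), against 11.7% of all nuclear genes, and 2 of the 16 had an IDR-thresholded summit. The word GAACCCG was present on the gene's strand at 12 genes (7.36%), against 0.294% of all nuclear genes, and 2 of the 12 had such a summit, F59C6.15 and Y53F4B.47. It was also present at 5 hosted snoRNA genes (2.73%), 2 of them with such a summit. Of all nuclear genes with the word, 5.80% had one. On the opposite strand the word lay at 6 of the 163 genes (3.68%), all 6 with a summit, against 0.2% of all nuclear genes. Of all nuclear genes with the word on that strand, 9.57% had a summit, and of 2 such hosted genes 1 had one. In each of the 6 genes outside hosts, however, its reverse complement shares letters with the start of a B box. In 5 of the 6 this is an exact B box core, which is thereby counted again, and in T06C12.16 it is the B box with 1 mismatch. A match is a run of letters and does not show that a factor binds there.

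The genes with a summit were shorter than the others by their medians. Lengths ran from 62 to 344 bases with a median of 134, and the median was 79 bases at the 27 genes and 137.5 at the other 136. Of the 40 genes of up to 90 bases, 15 had an IDR-thresholded summit (37.5%, 22.7 to 54.2%), against 12 of the 123 longer ones (9.76%, 5.14 to 16.4%). Hosted snoRNA genes showed the same order, with 8 of 33 (24.2%) against 7 of 150 (4.67%). Length and box cores went together, since 16 of the 40 short genes and 10 of the 123 longer ones held a core. Among the short genes, 11 of the 16 with a core had a summit (68.8%, 41.3 to 89.0%), against 4 of the 24 without (16.7%, 4.74 to 37.4%). Among the longer genes the counts were 3 of 10 with a core (30%, 6.67 to 65.3%) and 9 of 113 without (7.96%, 3.71 to 14.6%).

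The type of RNA was searched in the gene sequence. Box D (CTGA) in the last 12 bases was present at 37 of the 163 genes, with a median length of 83 bases, and 14 of them had an IDR-thresholded summit (37.8%, 22.5 to 55.2%). ACA placed 3 bases from the end, the mark of the H/ACA type, was present at 13 genes, and 4 had one (30.8%, 9.09 to 61.4%). Neither was present at 115 genes, of which 9 had one (7.83%, 3.64 to 14.3%). Box C (TGATGA) in the first 20 bases was found at 11 genes, 2 of them with a summit. Among hosted genes 34 held CTGA and 45 held ACA, and 7 (20.6%) and 3 (6.67%) of these had a summit. Because 115 of the 163 carried neither end mark, the biotype was not matched to a type for most of them.

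The next values are those of single genes, beginning with the strongest peaks at genes that hold both box cores. T03F7.8 (chrV:11314258-11314332), which ends in box D and lies opposite the cuticlin-like gene cutl-18, had signal values of 207 in the IDR-thresholded list, 99.9 in replicate 3 and 109 in replicate 4. C04G6.12 (chrII:5105157-5105231), also of the box D kind and opposite the MAP kinase gene mpk-2, had 187 in the IDR-thresholded list, 106 in replicate 3 and 82.3 in replicate 4. C41C4.11 (chrII:8107196-8107270), with box D and no gene over it, had 170, 88.1 and 81.9 in the same lists. All 3 ranked within the 112 strongest peaks of each replicate, and their IDR-thresholded summits lay at -71, -14 and -28. T19B4.8, a box D gene of 74 bases on chromosome I, had 170 in the IDR-thresholded list, 80.2 in replicate 3 and 83.9 in replicate 4.

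The other genes with exact pairs were weaker or differed between replicates. F12F6.11 (chrIV:11549793-11549864) had 122 in the IDR-thresholded list, 49.3 in replicate 3 and 70.6 in replicate 4, with the summit at -67 in each of them. T10B9.11 (chrII:9774764-9774834) had 112 in the IDR-thresholded list, 68.7 in replicate 3 (rank 259) and 34.6 in replicate 4 (rank 4455). ZK484.9, on chromosome I opposite the transporter gene haf-9, had no IDR-thresholded summit and had 99.4 in the pooled list, 72.5 in replicate 3 (rank 208) and 39.0 in replicate 4 (rank 2610). For T10B9.11 and ZK484.9 replicate 3 held the higher rank. H04D03.5 and Y59E1B.14, the last 2 with exact pairs, had no peak in any list although every 30-base word in the 200 bases around their starts was unique in the genome.

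A B box core without an A box at the set spacing, mismatches allowed, was found at 8 genes, of which 4 had an IDR-thresholded summit. W03C9.9 (chrII:11960898-11960959), a gene of 62 bases with both TGATGA and CTGA, had 168 in the IDR-thresholded list, 83.2 in replicate 3 and 91.7 in replicate 4, with the summit at -97. Y23H5B.10, of 144 bases on chromosome I and 16177 bp from the nearest protein-coding start, had 171, 81.5 and 89.1 in these lists, with the summit at -3. T02E1.9, on chromosome I and partly opposite the sperm activation gene spe-12, had 167, 92.3 and 75.4. These 3 genes ranked between 70 and 149 in both replicates. T27A3.9, on chromosome I and partly opposite T27A3.8, had 126 in the IDR-thresholded list, 69.1 in replicate 3 and 62.0 in replicate 4.

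2 of the strongest genes held the pair with a mismatch. C27H5.9 (chrII:7184010-7184078), opposite the phosphodiesterase delta-like gene pdl-1, had 163 in the IDR-thresholded list, 72.5 in replicate 3 and 91.6 in replicate 4, with the summit at 14 bp downstream. ZK643.9 (chrIII:8937767-8937897), with the ACA mark, had 153, 74.0 and 67.8 in the same lists, with the summit at 5 bp downstream. Both of these IDR-thresholded summits lay inside the annotated gene, past the B box. The replicate 4 summits lay at -23 for C27H5.9 and at 0 for ZK643.9, which is not past the B box. Around the start of ZK643.9, 89.5% of the 30-base words were unique, and it shares others with the snoRNA gene K09E9.5, which had 63.0 in the pooled list, 32.7 in replicate 3 and 31.1 in replicate 4, so reads of these 2 genes could have been placed on either. The other 5 IDR-thresholded genes of this kind, T04A8.17, T06C12.16, Y75B12B.12, K02C4.8 and Y53F4B.48, had values from 117 to 130 in that list.

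Strong peaks were also found at genes without a box pair. F59C6.15, of 173 bases on chromosome I (10516978 to 10517150), had the highest value of all 163 genes, at 390 in the IDR-thresholded list (rank 15), 188 in replicate 3 (rank 11) and 211 in replicate 4 (rank 18). It holds GAACCCG at -72, with its summit at -64, and ends in box D. Only 46.2% of the 30-base words around its start were unique, and it shares such words with the snoRNA genes F25H2.15, F43A11.8 and Y67A10A.14 and with the hosted gene T19C4.11, so reads could have been placed on more than 1 copy. Of these, Y67A10A.14 had 88.7 in the pooled list, 53.3 in replicate 3 and 34.4 in replicate 4. F25H2.15 had 79.6 in the pooled list, 58.4 in replicate 3 and 19.1 in replicate 4. F43A11.8 had 33.8 in the pooled list, no replicate 3 peak and 19 in replicate 4, and T19C4.11 had no peak. The family thus ran from the strongest gene of the set to 1 without a peak.

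ZK265.10, of 62 bases on chromosome I, had 163 in the IDR-thresholded list, 93.6 in replicate 3 and 69.0 in replicate 4, with the summit at -68. W01H2.11 (chrX:4222324-4222465) had 159, 68.0 and 84.3 in the same lists, and its summit at -491 is the farthest of the 27. M7.15 (chrIV:11083147-11083243) had 134 in the IDR-thresholded list, 61.8 in replicate 3 and 70.1 in replicate 4, and its summit lay at -47. These 3 genes hold no box core, no pair and no GAACCCG, and they are 3 of 8 such genes among the 27. Y53F4B.47 (chrII:15025814-15025893), which holds GAACCCG at -78, had 129 in the IDR-thresholded list, 32.9 in replicate 3 (rank 6558) and 90.4 in replicate 4 (rank 79), so its place in the list went with replicate 4. It shares 30-base words with C05H8.3, which had 44.3 in the pooled list, 29.6 in replicate 3 and no replicate 4 peak.

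Of the 6 genes with the highest pooled values and no IDR-thresholded summit, 4 ranked within the first 400 peaks of 1 replicate alone, ZK484.9 among them. F32E10.10 (chrIV:7574122-7574191), a 70-base gene with a B box core and TGATGA, had 106 in the pooled list, 77.6 in replicate 3 (rank 167) and 25.4 in replicate 4 (rank 14041), with the summit at -60 in all 3. C26C6.13, on chromosome I, had 89.9, 67.5 (rank 276) and 26.6 (rank 12095). Its summit lay at -369 in the pooled list, -366 in replicate 3 and -185 in replicate 4, so the replicate 4 value may belong to another peak. F30H5.4 (chrIII:502804-502889), with TGATGA and CTGA, had 88.8, 29.7 (rank 9743) and 61.9 (rank 329). In these 3 genes 1 replicate ranked its strongest peak in the window within the first 400 and the other did not. Of them, F32E10.10 and F30H5.4 each hold an exact B box core and the pair with a mismatch, and C26C6.13 holds neither core. Y74C9A.6, on chromosome I, had 106 in the pooled list, 50.7 in replicate 3 and 50.9 in replicate 4. F07A11.15 (chrII:11620025-11620295), opposite the nuclear receptor co-repressor gene din-1, had 102, 52.1 and 54.8, and in both genes the replicates ranked the peak between 530 and 858.

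3 genes had a high rank in 1 replicate and no summit in the window in the other, and all 3 had it in replicate 3. C07A9.14 (chrIII:9717380-9717458), opposite the sodium-calcium exchanger gene ncx-7, had 116 in the IDR-thresholded list and 67.9 in replicate 3 (rank 269). T08B6.64 (chrIV:4880738-4880850) had 86.1 in the pooled list and 71.9 in replicate 3 (rank 214). Around its start 80.1% of the 30-base words were unique, and it shares others with T26A8.6, which had 79.0 in the pooled list, 48.5 in replicate 3 and 43.3 in replicate 4, so here too reads could have been placed on either. Y39G10AR.24, of 65 bases on chromosome I, had 51.3 in replicate 3 (rank 818) and no summit in the other lists. It holds an exact B box core and the pair with a mismatch, whereas C07A9.14 and T08B6.64 hold neither core. Only C07A9.14 of the 3 genes had an IDR-thresholded summit.

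Summits were checked for other genes in reach. None of the 27 lay in the window of a tRNA, snRNA or second snoRNA gene, 14 lay in that of no other gene, 8 in that of a gene of some other non-protein-coding biotype and 6 in that of a protein-coding gene, with 1 gene, Y53F4B.48, in both of the last groups. The 6 with a protein-coding gene were C41C4.11 with the sulfotransferase gene chst-1 and C41C4.9, T02E1.9 with T02E1.2, Y53F4B.47 with the cap methyltransferase gene cmtr-1, Y75B12B.12 with Y75B12B.11, K02C4.8 with K02C4.2, and Y53F4B.48 with the glutathione S-transferase gene gst-27. The 8 with another non-protein-coding gene included the strongest, F59C6.15, with F59C6.19. Among them were also F12F6.11 with F12F6.17, T10B9.11 with T10B9.12, T27A3.9 with T27A3.12 and W06H8.17 with W06H8.12 and W06H8.13. The others were H09I01.2 with H09I01.4, C34E11.20 with C34E11.9 and cel-mir-239a, and Y53F4B.48 with Y53F4B.58. At all genes of both groups, the gene to which a peak belongs cannot be told apart. The nearest protein-coding start lay a median of 892 bp from the 27 genes, 1534 bp from the other 136 and 1090 bp from hosted snoRNA genes. Genes on the opposite strand of a protein-coding gene had a summit in 7 of 38 cases (18.4%, 7.74 to 34.3%), against 20 of the 124 without an overlap (16.1%, 10.1 to 23.8%).

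The 27 genes lay on all 6 chromosomes. Chromosome II had 8 of its 36 genes, chromosome I 7 of 38, chromosome V 4 of 19, chromosome III 3 of 16, chromosome IV 3 of 31 and chromosome X 2 of 23, and the intervals of all 6 shares overlapped. The 100 bases before the start held a median of 54% G and C at the 27 genes (range 37 to 69%), 45% at the other 136 (23 to 67%), 42% at hosted snoRNA genes and 31% over all nuclear genes. The part of base composition in the counts was not tested. The gene sequence occurred once in the genome at 161 of the 163 genes, and 24 of the 27 had only unique 30-base words around the start. Without the genes under 90% unique words, 25 with an IDR-thresholded summit remained.

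Genes of the proteins that work on snoRNAs were counted in the same windows. Of 7 snoRNP protein genes matched, 1 had an IDR-thresholded summit and 2 a pooled one, where all nuclear genes stood at 0.885% and 21.9%. This was fib-1, which encodes fibrillarin, with 131 in that list, 80.0 in replicate 3 and 55.4 in replicate 4, and its summit at -347. A second gene, nol-56, which encodes a core protein of box C/D particles, had 97.9 in the pooled list, 56.6 in replicate 3 and 40.7 in replicate 4. The same peaks lay in the window of a snoRNA gene inside nol-56, which is counted among the hosted genes above, so their gene cannot be told apart. Of 11 genes for small RNA promoter factors and RNA polymerase III subunits, 0 had an IDR-thresholded summit and 2 had a pooled one, brf-1 with 43.3 and snpc-3.4 with 52.4, beside a pooled list median of 44.5. With 7 and 11 genes, these counts are too few to be read against the shares of all nuclear genes.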

How the data were processed

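The authors deposited 4 lists of AKIR-1::GFP peaks on ce11. Replicates 3 and 4 have a list each, a further list was called on their pooled reads, and the IDR-thresholded list derives from the other 3, per the texts deposited with them. Every call also took 1 shared alignment set, per the same texts. The labels give sonication and a fragment size range of 200 to 800. Which aligner, peak caller, versions and IDR threshold were used is not given in the sources.

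Signal values are as the authors deposited them. Their scale has no statement in the labels and is not shared by the lists, so they served to describe and rank peaks within a list. Deposited −log10 q-values were turned into q. Summits are the deposited peak start plus the summit offset. Depth is unknown, as peak lists carry no counts of reads. The number of columns without a group was 0.

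Gene positions came from Ensembl release 115 and sequence from RefSeq, both of the WBcel235 assembly. Where a gene had several summits the strongest was used. Ranks count from the highest signal value of a list. Intervals are exact 95% binomial (Clopper-Pearson) intervals (scipy 1.17.1, Python 3.11.15, pandas 2.3.3). The design has 1 group of 2 samples, so no test was made. On simulated lists 40 of 40 planted summits were found, and bedtools gave the same genes in all 4 lists.

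The genes, lists and rules were chosen with earlier results of these data known. Genes named are the 12 with the highest IDR-thresholded signal, the 6 highest in the pooled list without an IDR-thresholded summit, the 3 with the best rank in 1 replicate and no peak in the other, and those sharing repeated sequence with one of them. Other genes with a box pair, those sharing summits with genes of other kinds, and single genes noted for a position, a missing replicate peak, a core or a word were named after their values were seen. The A box core, the pair spacing, the word GAACCCG, the limit of 90 bases and the check of unique 30-base words were also set after the data were seen. Of 10 snoRNP names 1, nol-5, was not matched, and of 12 promoter factor names 1, snpc-3.3, was not; 7 genes remained of the first list because some names were synonyms. Alternatives were other windows, any overlap, subsets of genes, the stronger part of each list, and the 400 strongest peaks of the pooled list or of either replicate.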

Additional observations from a re-analysis of the deposited data

How the results depend on the processing

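Of 83 alternative values computed, 76 stayed within 1.5 times of the reported count or within the spread between replicates. Those 76 include the counts from the 400 strongest pooled peaks, which equal the reported counts (27 genes in both). At these genes the peaks held the same ranks in both lists, so that alternative could not differ and is no support. The alternatives cover counts over the snoRNA genes outside hosts and their median position; hosted genes, all nuclear genes and differences between sets were not recomputed under them. The 7 others follow from smaller sets. Within the 200 strongest of the 400 IDR-thresholded peaks, 12 of the genes had a summit in place of 27, 7 in place of 11 with a B box core, 6 in place of 13 with a spaced pair, 4 in place of 13 with neither core, and 8 in place of 15 of up to 90 bases. Without genes that overlap a protein-coding gene on either strand, 7 of 13 genes with a B box core had a summit in place of 11 of 22, and 9 of 27 genes of up to 90 bases in place of 15 of 40. Using the 400 strongest peaks of the other replicate, the count of 27 was 25 without replicate 3 and 23 without replicate 4, and the median position of -42 was -43 and -31. No paired analysis was possible because there is 1 group. With no read counts and no library from untagged worms analysed here, a gene without a peak cannot be read as a gene without AKIR-1, and 2 replicates set no spread for a single gene.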
